A study of Danio rerio with 3 samples.

Results

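The genes described here are tac4, uchl1, basp1, syt5a, rgs4, rgs5a and fhl1b, 7 of the 15633 genes listed in at least 1 of the 3 libraries of a zebrafish (Danio rerio) liver single-cell RNA sequencing experiment. They were chosen by name with their summed levels in the CreLox tumor known from earlier results on these same cells, and because related genes are known from neurons or contractile cells. Their levels in the CreLox library against the other libraries, the share of cells that held them and their detection in the same cells are therefore descriptions, and none of these values was tested. The files listed all 7 genes for both tumor libraries and 6 for the liver without tumor, where syt5a had no row.

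Each library came from the liver of 1 male fish of 6 months, so the values of a group have no replicate, and fish, library and genotype cannot be told apart. HepABC HCC was a hepatocellular carcinoma (HCC) in Tg(fabp10a-pt-beta-catenin), a line in which the fabp10a promoter, active in hepatocytes, drives an activated β-catenin, and this fish received no larval treatment. By the methods of the study it also carried a Wnt reporter transgene that makes mCherry. CreLox HCC was a carcinoma in Tg(fabp10a-CreERT2;fabp10a-flox-beta-catenin), in which hepatocytes make a tamoxifen-dependent Cre and a lox-switch cassette that expresses the blue fluorescent protein EBFP until Cre removes it and brings activated β-catenin under the promoter. The larva had been kept in 10 µM 4-hydroxytamoxifen (TAM) from day 3 to day 6 after fertilization. The no HCC liver was Tg(fabp10a-flox-beta-catenin), with the lox-switch cassette and no Cre, given the same TAM treatment. Thus all 3 fish carried a β-catenin transgene, both TAM-treated fish carried the cassette, and HepABC HCC differed from the other fish in transgene and in treatment at once.

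Tachykinins are short secreted peptides cut from larger precursors, and they signal through G protein-coupled receptors. Regulators of G protein signaling (RGS proteins) act further down such pathways by speeding the return of G protein alpha subunits to their inactive form. Synaptotagmins sense calcium at secretory vesicles, BASP1 lies under the plasma membrane of growth cones, UCHL1 is a ubiquitin hydrolase abundant in mammalian neurons, and FHL proteins are LIM-domain proteins found at actin structures of muscle, so that none of these genes is a usual marker of hepatocytes.

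A UMI (unique molecular identifier) marks 1 captured transcript molecule, read here near its 3′ end, and CPM stands for the UMIs of a gene per 1000000 UMIs of the cells summed. The libraries held 2866, 2112 and 1077 cells and 47680774, 9066031 and 5404507 UMIs in HepABC HCC, CreLox HCC and no HCC. Cells of 10000 or more UMIs, called deep cells below, numbered 1938, 186 and 213, with medians of 20802, 24907 and 17048 UMIs, and 91.5%, 94.1% and 98.6% of them lay in hepatocyte-like clusters, named from marker genes. Cells of fewer than 5000 UMIs, called shallow cells, numbered 537, 1792 and 793, of which 34.3%, 59.0% and 27.1% were hepatocyte-like. Mitochondrial genes took a median of 1.48% of UMIs in shallow CreLox HCC cells against 5.77% in deep ones. HepABC HCC shared 8 cell barcodes with CreLox HCC and 1 with no HCC, CreLox HCC and no HCC shared 2, and the cells with these barcodes held 0 to 5 UMIs of any of the genes in a library. The Xenopus β-catenin sequence common to the transgenes stood at 317 CPM in deep cells of CreLox HCC, at 298 CPM in those of no HCC, which had no Cre, and at 20.8 CPM in those of HepABC HCC, so its level did not separate a switched from an unswitched cassette. All intervals below are 95% exact intervals on UMI or cell counts and cover counting error only.

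In deep cells, 6 of the 7 genes had their highest level in CreLox HCC. The exception was syt5a, which was higher in HepABC HCC. All 6 genes listed in both libraries were at least 4-fold higher in CreLox HCC than in no HCC, where 162 of 3454 genes with 10 CPM or more in either library, 4.69%, reached that fold. Against HepABC HCC, 6 of 7 did so beside 164 of 3726 genes, 4.4%. The median ratio of the members was 95.8 over no HCC and 21.5 over HepABC HCC, against 1.38 and 1.06 over all genes compared. Because high levels in this tumor chose the members, these counts only describe the choice, and since both ratios share the CreLox library they are not separate evidence.

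**Figure D1:**
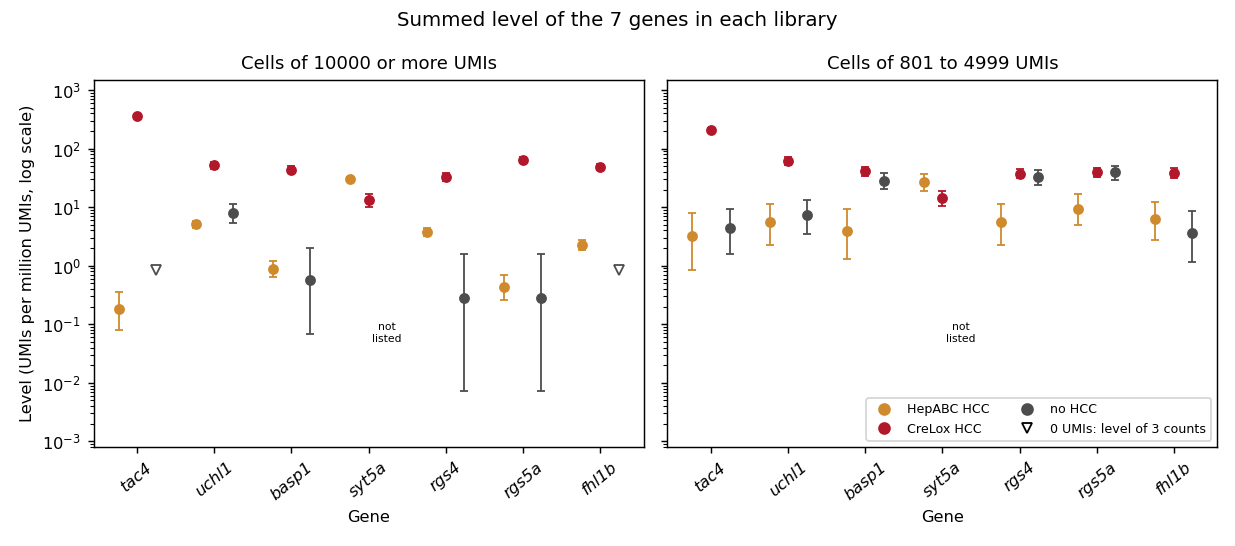
Summed level of each gene (CPM, log scale) in deep cells on the left and shallow cells on the right, with points for HepABC HCC, CreLox HCC and no HCC, bars for the 95% counting interval and open triangles for the level that 3 counts would give where 0 UMIs were found. In deep cells CreLox HCC stood above both other libraries for every gene but syt5a, whereas in shallow cells rgs4 and rgs5a were at 37.3 and 39.4 CPM in CreLox HCC beside 32.6 and 39.1 CPM in no HCC.

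The tachykinin precursor gene tac4 differed most between the libraries. Deep CreLox HCC cells held 1792 UMIs of it, or 364 CPM (347 to 381), and 175 of the 186 cells, 94.1% (89.7% to 97.0%), had at least 1. Deep HepABC HCC cells held 8 UMIs in 2 of 1938 cells, 0.184 CPM (0.0793 to 0.362), and deep no HCC cells held 0 UMIs in 213 cells. Taking 3 counts as the limit in place of an interval, this allows a level of up to 0.849 CPM, and a share of cells with a UMI of up to 1.41%, which limits detection and not expression. The CreLox level was 1981-fold that of HepABC HCC (1003 to 4595). Of the 8 HepABC HCC UMIs 7 lay in 1 cell, so this interval is too narrow. Among hepatocyte-like deep cells the ratio was 14788. Over no HCC it was at least 428-fold, against the same limit of 3 counts in the library. In both ratios tac4 ranked first of all genes compared, and HepABC HCC and no HCC could not be ordered at this depth. After each deep cell was thinned at random to 10000 UMIs, 87.1% of CreLox HCC cells and 0.103% of HepABC HCC cells still held tac4.

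The few tac4 UMIs outside the CreLox tumor were concentrated in rare cells. In HepABC HCC, 15 of the 16 UMIs lay in 4 cells of an unnamed cluster of 71 cells led by cfd, esm1 and krt91, with up to 7 UMIs in 1 cell. In no HCC, 5 of 6 UMIs lay in 1 cell of an unnamed cluster of 16 cells led by anxa1a, cfd and gstm.3, and hepatocyte-like cells held 0 UMIs in 467 cells. None of these cells had a barcode that was also present in CreLox HCC.

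Among the genes named for neurons, uchl1 was present in every library. Its level in deep cells was 51.6 CPM (45.4 to 58.3) in CreLox HCC, 7.93 CPM (5.27 to 11.5) in no HCC and 5.14 CPM (4.49 to 5.86) in HepABC HCC, and 56.5%, 12.21% and 8.31% of deep cells held it. CreLox HCC was 6.51-fold above no HCC (4.40 to 9.99) and 10.0-fold above HepABC HCC (8.35 to 12.05), the smallest ratio over no HCC among the members, at rank 86 of 3454. HepABC HCC was at 0.649 of no HCC (0.437 to 0.999). The shares of cells given for this and the other genes grow with depth, which differed between the libraries. After thinning to 10000 UMIs, 63 of 186 CreLox HCC and 79 of 1938 HepABC HCC cells held uchl1.

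The growth cone gene basp1 was nearly absent from deep cells other than those of CreLox HCC. It stood at 43.5 CPM (37.8 to 49.7) there, in 54 of 186 cells, at 0.896 CPM (0.637 to 1.22) in HepABC HCC and at 0.566 CPM (0.0686 to 2.05), from 2 UMIs, in no HCC. The ratio was 48.5 over HepABC HCC (34.4 to 70.1) and 76.7 over no HCC (21.0 to 638). HepABC HCC and no HCC did not differ beyond counting error. After thinning, 42 of 186 CreLox HCC and 15 of 1938 HepABC HCC cells held basp1.

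The synaptotagmin gene syt5a had the opposite order between the tumors. Deep HepABC HCC cells held 1328 UMIs, 30.5 CPM (28.9 to 32.2), in 40.1% of cells, against 64 UMIs, 13 CPM (10.0 to 16.6), in 14.5% of CreLox HCC cells. CreLox HCC was thus at 0.426 of HepABC HCC (0.326 to 0.548) and ranked 3533 of 3726 genes by that ratio. After thinning, 446 of 1938 HepABC HCC and 17 of 186 CreLox HCC cells held syt5a. In shallow cells the ratio was 0.527 (0.331 to 0.847). No level can be given for no HCC, since syt5a had no row there. Within HepABC HCC, syt5a ranged over clusters of hepatocyte-like cells from 8.54 CPM (6.26 to 11.4) to 50.7 CPM (45.6 to 56.1), and reached 64.0 CPM (55.1 to 74.0) in an unnamed cluster of 136 cells led by chia.6.

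The paired genes rgs4 and rgs5a, which lie next to each other on chromosome 6 of the RefSeq zebrafish assembly, encode RGS proteins, and RGS5 is a known pericyte gene in mammals. In deep cells rgs4 stood at 32.5 CPM (27.7 to 37.9) in CreLox HCC, where 29.0% of cells held it, 3.84 CPM (3.28 to 4.46) in HepABC HCC and 0.283 CPM, 1 UMI, in no HCC. CreLox HCC was 8.47-fold above HepABC HCC (6.78 to 10.6) and 115-fold above no HCC (20.3 to 4561), and HepABC HCC was 13.6-fold above no HCC (2.398 to 538). That last ratio rests on the 1 UMI of no HCC and fell to 1.28 with cells from 5000 UMIs. It was 0.170 (0.0646 to 0.379), the other direction, in shallow cells. Those shallow cells included 87 endothelial-like cells in no HCC and 0 in HepABC HCC. In shallow hepatocyte-like cells alone, rgs4 was at 9.38 CPM (5 UMIs) in HepABC HCC and 2.98 CPM (1 UMI) in no HCC. The CreLox level of rgs5a was 64.4 CPM (57.5 to 71.9), from 30.6% of cells, against 0.436 CPM (0.263 to 0.682) in HepABC HCC and 0.283 CPM, again 1 UMI, in no HCC. Its ratio was 148 over HepABC HCC (92.9 to 248) and 227 over no HCC (40.5 to 9008), and here HepABC HCC and no HCC did not differ beyond counting error. After thinning, 32 of 186 CreLox HCC cells held rgs4 and 45 held rgs5a, beside 68 and 9 of 1938 HepABC HCC cells.

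The LIM-domain gene fhl1b stood at 48.9 CPM (43.0 to 55.5) in deep CreLox HCC cells, in 40.3% of them, and at 2.27 CPM (1.85 to 2.77) in 4.64% of HepABC HCC cells. No UMI was found in 213 no HCC cells. CreLox HCC was 21.5-fold above HepABC HCC (17.0 to 27.5) and at least 57.6-fold above no HCC, a bound that became 14.96 with cells from 20000 UMIs, where fewer UMIs of no HCC remain. HepABC HCC was at least 2.68-fold above no HCC, and in shallow cells the ratio was 1.75 (0.503 to 6.78). After thinning, 50 of 186 CreLox HCC and 33 of 1938 HepABC HCC cells held fhl1b.

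Several members had another source in the liver without tumor. In no HCC, basp1 was at 371 CPM (264 to 507) in the cholangiocyte-like cluster, where 22 of 41 cells held it, and at 0.722 CPM (0.149 to 2.11) in hepatocyte-like cells, so that 39 of its 46 UMIs were in the cholangiocyte-like cluster. The CreLox HCC cholangiocyte-like cluster held basp1 in 10 of 18 cells at 300.5 CPM (172 to 488), while CreLox hepatocyte-like cells had 40.1 CPM (35.7 to 44.9). Cholangiocytes line the bile ducts.

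The RGS genes had a different source. The endothelial-like cluster of no HCC held rgs4 at 181 CPM (137 to 236) and rgs5a at 237 CPM (186 to 299), 55 of 57 and 72 of 77 UMIs of the library, against 0.482 CPM of each in hepatocyte-like cells. With finer clusters, 49 rgs4 and 56 rgs5a UMIs fell into a group of 37 cells named stellate-like by its markers, in which the stellate gene steap4 was present in 100% and the endothelial gene kdrl in 86.5% of cells, so the division between stellate and endothelial cells was not clean. In CreLox HCC the endothelial-like cluster had 92.1 CPM of rgs4 (62.2 to 131) and 154 CPM of rgs5a (114 to 202), and hepatocyte-like cells had 32.2 CPM (28.3 to 36.6) and 53.0 CPM (47.9 to 58.5). The few UMIs of tac4 and fhl1b in no HCC, 6 of each, also lay outside hepatocyte-like cells, those of fhl1b as 3 in cholangiocyte-like (28.5 CPM, 5.89 to 83.4), 2 in thrombocyte-like and 1 in endothelial-like cells. For uchl1, 32 of 41 UMIs were in hepatocyte-like cells, at 7.71 CPM (5.27 to 10.9).

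**Figure D2:**
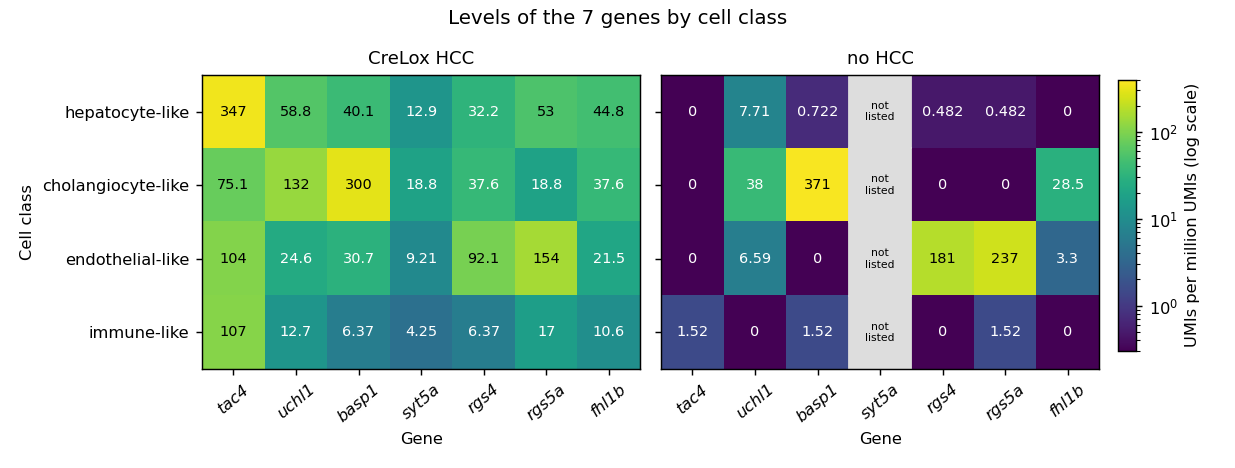
Level of each gene (numbers and color, CPM, log color scale) in 4 cell classes of CreLox HCC on the left and no HCC on the right, over cells of all depths. In no HCC basp1 was at 371 in cholangiocyte-like cells and rgs4 and rgs5a at 181 and 237 in endothelial-like cells, with 0.722 or less in hepatocyte-like cells, whereas in CreLox HCC hepatocyte-like cells held all 7 genes.

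These other sources bear on the bound of 10000 UMIs, which left mostly hepatocyte-like cells in each library. Over shallow cells, of which most in no HCC were not hepatocyte-like, the CreLox HCC level was 1.14-fold that of no HCC for rgs4 (0.805 to 1.65), 1.01-fold for rgs5a (0.728 to 1.41) and 1.45-fold for basp1 (1.01 to 2.13). The ratios were 8.5 for uchl1 (4.53 to 18.0), 10.6 for fhl1b (4.43 to 33.3) and 48.0 for tac4 (22.0 to 131). Lowering the bound to 5000 UMIs brought the deep ratio over no HCC to 11.01 for rgs4 and 10.5 for rgs5a. When only hepatocyte-like clusters were kept, all 6 genes remained at least 4-fold higher in CreLox HCC deep cells than in either other library.

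Within the CreLox tumor, shallow cells also held all of the genes, with tac4, rgs5a and fhl1b lower there than in deep cells. Shallow CreLox HCC cells had 209 CPM of tac4 (193 to 225), 61.6 of uchl1 (53.4 to 70.8), 41.0 of basp1 (34.3 to 48.6), 14.2 of syt5a (10.4 to 18.9), 37.3 of rgs4 (30.9 to 44.5), 39.4 of rgs5a (32.9 to 46.9) and 38.5 of fhl1b (32.0 to 45.9). The share of shallow cells with a UMI ran from 1.90% for syt5a to 27.4% for tac4. Deep cells were higher by 1.74-fold for tac4 (1.59 to 1.91), 1.63-fold for rgs5a (1.33 to 2.02) and 1.27-fold for fhl1b (1.02 to 1.59), while the intervals of the other 4 ratios, from 0.837 to 1.06, included 1. Over all 4897 genes compared the median ratio of deep to shallow cells was 0.669. Among hepatocyte-like cells alone the ratio was 1.29 for tac4 (1.17 to 1.42), 1.88 for rgs5a (1.43 to 2.49) and 0.627 for uchl1 (0.509 to 0.775). For fhl1b it was 1.24 (0.951 to 1.637) in these cells, an interval that included 1.

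Immune-like cells, which should lack hepatocyte transcripts, served as a background for RNA free in the suspension. Among shallow CreLox HCC cells, 433 immune-like cells with a median of 1575 UMIs held tac4 at 89.6 CPM in 14.1% of cells, and 1058 hepatocyte-like cells with a median of 1510 UMIs held it at 288 CPM in 35.8%. The ratio of immune-like to hepatocyte-like cells was 0.311 for tac4 (0.238 to 0.399), beside 0.228 for fabp10a, 0.222 for Xenopus β-catenin, 0.246 for apoa2, 0.201 for tfa and 0.146 for EBFP, transcripts made in hepatocytes. It was 0.0989 for uchl1 (0.0357 to 0.220), 0.151 for basp1 (0.0399 to 0.405), 0.171 for rgs4 (0.0537 to 0.416), 0.235 for fhl1b (0.0915 to 0.510), 0.377 for rgs5a (0.173 to 0.738) and 0.453 for syt5a (0.113 to 1.33). The tac4 seen in immune-like cells of this library was at a fraction whose interval included 0.246 of apoa2 and overlapped that of Xenopus β-catenin (0.167 to 0.291). The tac4 interval lay above those of fabp10a (0.224 to 0.233), tfa (0.193 to 0.209) and EBFP (0.137 to 0.155). The part of free RNA in the tac4 of these cells was not tested. The gap between hepatocyte-like and immune-like cells exceeded counting error for every member except syt5a.

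Single deep CreLox HCC cells showed a broad tac4 signal and narrow signals of the others. The tac4 level per cell had a median of 352 CPM, with 80.5 CPM at the 10% point of the cells, 626 CPM at the 90% point and a maximum of 1004 CPM, and the 19 cells with the most tac4 held 23.7% of its UMIs. For uchl1 the median was 27.0 CPM and the top 19 cells held 43.3%. For basp1, syt5a, rgs4, rgs5a and fhl1b the median cell had 0 UMIs, and the top 19 cells held 68.7%, 87.5%, 65.6%, 69.4% and 58.5% of the UMIs, with maxima of 240 CPM for syt5a to 880 CPM for rgs5a.

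**Figure D3:**
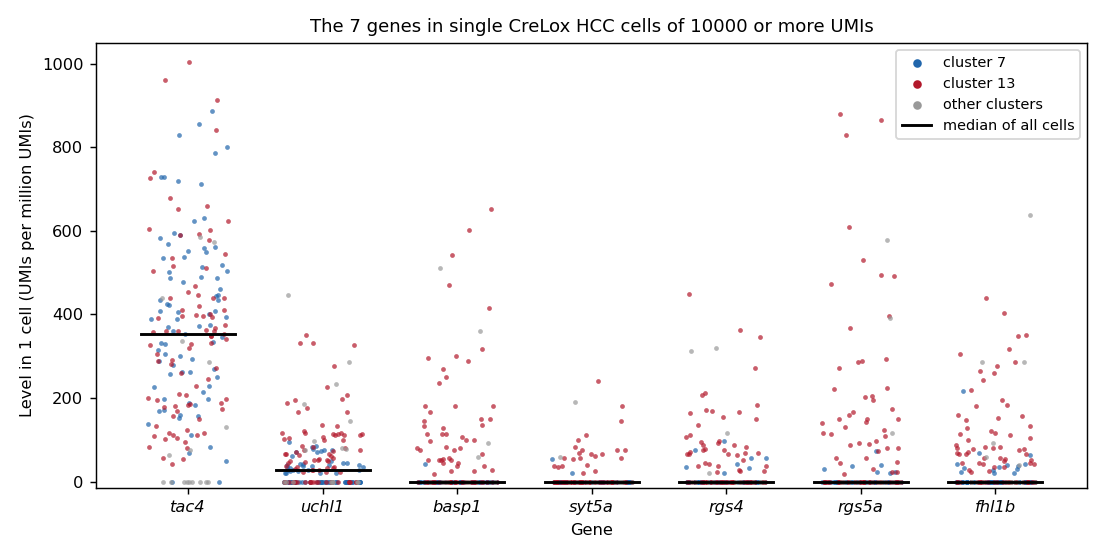
Level of each gene (CPM) in each of 186 CreLox HCC cells of 10000 or more UMIs, 1 point a cell, colored by cluster, with a black line at the median of all cells. Cells of clusters 7 and 13 had like tac4 levels, with a median over all cells of 352, and the cells high in basp1, syt5a, rgs4, rgs5a and fhl1b were mostly of cluster 13.

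Most deep cells belonged to 1 of 2 hepatocyte-like clusters, cluster 7 with 82 deep cells and cluster 13 with 87, both drawn without the members, the transgenes and mitochondrial genes among the genes clustered. Over all its cells cluster 7 had 392 CPM of tac4 and cluster 13 had 357. The other genes stood far lower in cluster 7, with 20.8 against 77.4 CPM of uchl1, 0.814 against 82.6 of basp1, 1.63 against 25.1 of syt5a, 4.48 against 57.0 of rgs4, 3.67 against 120 of rgs5a and 8.55 against 83.8 of fhl1b. Shallow cells fell into similar kinds. Cluster 4 had 118 CPM of basp1 and 110 each of rgs4, rgs5a and fhl1b, and clusters 6 and 12 had at most 16.6 CPM of any of these 4. Cluster 11, unnamed, had 191 CPM of basp1, 144 of rgs4, 195 of fhl1b, 176 of uchl1 and 75.8 of both syt5a and rgs5a, and its tac4 of 83.8 CPM (51.8 to 128) lay below that of every hepatocyte-like cluster of this library, which ranged from 188 to 427 CPM. This cluster was led by fabp1b.1, crip3 and uraha, with fhl1b itself among its 10 leading genes.

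The 6 genes other than tac4 were found in the same cells. To set aside depth, each deep CreLox HCC cell was thinned to 10000 UMIs and the number of cells with both genes of a pair was divided by the number that independent detection at the same shares would give. All 15 pairs without tac4 had a quotient above 1, from 1.38 to 2.77 with a median of 1.94. These cells pool clusters 7 and 13, which differ in the level of all 6 genes. No quotient was computed within 1 cluster, and the part of this difference in the quotients was not tested. The 6 pairs with tac4 ran from 0.911 to 1.08, but since 162 of the 186 cells held tac4, no pair with it could exceed 1.15, and these values are not comparable with the others. Pearson's r of tac4 with uchl1, basp1, rgs4, rgs5a and fhl1b over the same cells was -0.15, -0.04, -0.08, 0.07 and -0.07, given as a description. The highest was basp1 with rgs4, for which 20 of 32 rgs4 cells, 62.5% (43.7% to 78.9%), held basp1 against 14.3% (9.17% to 20.8%) of the cells without rgs4. Next was basp1 with fhl1b, where basp1 was present in 60.0% (45.2% to 73.6%) of fhl1b cells and 8.82% (4.64% to 14.9%) of the others. The neighbours rgs4 and rgs5a shared 15 cells, a quotient of 1.94, in the middle of the range. With all UMIs the 15 quotients were 1.21 to 2.55. In shallow cells thinned to 1000 UMIs, where only 0 to 10 cells held both genes of a pair, 13 of the 15 were above 1.

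**Figure D4:**
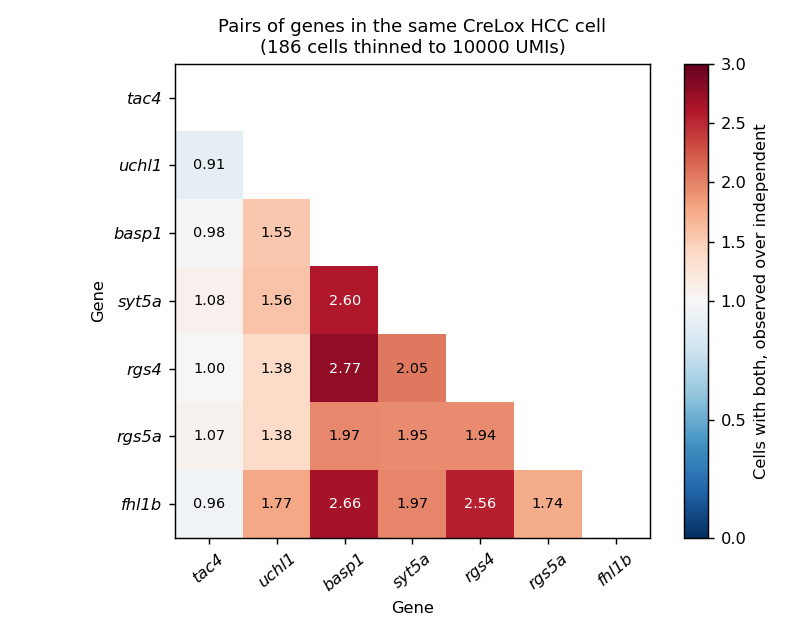
Cells with both genes of a pair divided by the number under independent detection (color and number, 1 in white), for each pair of genes in 186 CreLox HCC cells thinned to 10000 UMIs. The 15 pairs without tac4 were above 1, up to 2.77 for basp1 with rgs4, and the column of tac4, from 0.911 to 1.08, could not exceed 1.15 because 87.1% of cells held it.

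Of the 186 thinned cells, 77 held none of the 6 genes, 42 held 1, 26 held 2, and 41, or 22.0%, held 3 or more, including 2 with all 6. Independent detection at the same shares, again over the pooled clusters, would give 39.7 cells with none and 23.3 with 3 or more. The same thinning in HepABC HCC gave 6 of 1938 cells with 3 or more, 0.310%, and 7 of its 15 pairs above 1. Those quotients ran from 0 to 2.59 with a median of 0.990, the highest for rgs4 with fhl1b. Some genes were too rare there for a quotient to say much. Only 9 cells held rgs5a and 15 held basp1, so 0.0697 cells with both were expected and 0 were found. Of the pairs with the most cells expected, uchl1 with syt5a had 18 against 18.18 and syt5a with rgs4 had 22 against 15.65. The pair of syt5a with fhl1b had 15 against 7.594. For the 6 cells the number under independent detection was not computed, so the libraries were not compared in co-detection. The 41 cells were no deeper than the 77 without, with medians of 25006 and 25505 UMIs, and 36 of them lay in cluster 13 and 1 in cluster 7. Of the cells with none, 61 lay in cluster 7 and 10 in cluster 13. Leaving out the cells with the highest doublet scores removed 1 of the 186, which left 40 of 185 with 3 or more, and hepatocyte-like cells alone gave 38 of 175. Both choices were made after seeing the data.

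**Figure D5:**
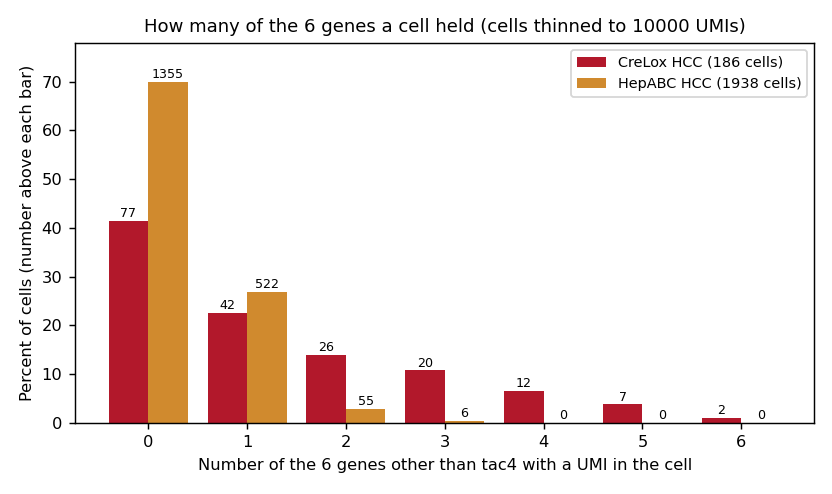
Percent of deep cells, thinned to 10000 UMIs, that held 0 to 6 of the 6 genes other than tac4, in CreLox HCC (186 cells) and HepABC HCC (1938 cells), with the number of cells above each bar. In CreLox HCC 20, 12, 7 and 2 cells held 3, 4, 5 and 6 of the genes, and in HepABC HCC 6 cells held 3 and none held more.

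Of the cells with 3 or more of the genes, 38 of 41 lay in hepatocyte-like clusters. They are set here beside the 77 cells with none, and the genes other than markers and Wnt targets were picked after their values or their likeness to the members in these cells had been seen, so their differences only describe the split. The fatty acid binding protein gene fabp10a was at 43011 CPM against 49314, while the 11 hepatocyte markers together were at 140213 CPM against 211169. The fall was not uniform over these markers. Of them rbp4 was higher, at 780.3 CPM against 319.4, a ratio of 2.443 (2.204 to 2.709). The ratio was 0.9671 for fgb (0.9299 to 1.006) and 0.9152 for fgg (0.882 to 0.9495). Hemopexin (hpx) was at 1180 CPM against 5255, the secreted liver protein gene leg1.2 at 364 against 3114, the alcohol dehydrogenase gene adh8a at 1048 against 3897, and thrsp, a lipogenic regulator, at 39.5 against 585. On the other side the S100 gene s100a10a was at 3936 CPM against 334, 11.8-fold (10.9 to 12.8), s100a10b at 1679 against 218, the keratin gene krt18 at 1639 against 424, the stress gene nupr1b at 753 against 114 and the actin cross-linker gene flna at 197 against 13.6. Reads of s100a10a and s100a10b, which are similar copies, may be split between them. The cells differed little in tac4, at 330 CPM against 375, a ratio of 0.879 (0.773 to 0.997). Xenopus β-catenin was at 266 against 309, a ratio of 0.862 (0.748 to 0.992). EBFP was clearly lower, at 3247 against 5130, a ratio of 0.633 (0.609 to 0.6575). The Wnt target axin2 was at 5.51 CPM (2.02 to 11.99) against 7.26 (4.06 to 11.97), and glula at 12.9 (7.03 to 21.6) against 15.5 (10.6 to 21.9), neither different beyond counting error. Among the other targets wif1 was at 9.18 against 4.84 (ratio 1.90, 0.709 to 5.08) and mtor at 3.67 against 9.68 (0.379, 0.0943 to 1.13), while myca was higher, at 14.7 against 3.39 CPM, a ratio of 4.34 (1.69 to 12.5).

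Markers of other cell types moved with this group in part. Of the 8 cholangiocyte genes 7 were listed in CreLox HCC. They summed to 2422 CPM in cells with 3 or more members and 548 in cells with none. Nearly all of it was anxa4 (1152 against 427) and lgals2b (1230 against 91.0). In UMIs, epcam had 4 against 0, sox9b had 0 in both, and krt4 went the other way with 0 against 19. Endothelial markers were at 28.5 CPM (31 UMIs) against 3.87 (8 UMIs) and immune markers at 28.5 against 139, with a median cell at 0 in each case. Single cells held much of these sums, 16 of the 31 endothelial UMIs in 1 endothelial-like cell and 142 of the 287 immune UMIs in 1 immune-like cell, and without these cells the values were 13.9 and 70.7 CPM. Stellate markers were lower, at 20.2 CPM against 55.65, or 15.15 against 21.46 without the cell with the most in each group. Thrombocyte markers, of which only fn1b had UMIs, were at 697 CPM against 1120. Of the smooth muscle list, mylka made up most, with 56.9 against 16.5 CPM, and acta2 and tagln had 0 UMIs in both. The part of other cells in these values was not tested.

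The defining genes of neurons were near 0, and those of smooth muscle were mixed. Of 30 neuron markers, 6 were listed in CreLox HCC and they held 11 UMIs in all deep cells, 2.23 CPM. In cells with 3 or more members the neuron list had 1 UMI and in cells with none 5. Of 23 neuroendocrine markers 3 were listed, with 12 UMIs, and of 7 glia markers 2, with 11 UMIs. Smooth muscle acta2 had 0 UMIs and tagln 2 in deep CreLox HCC cells, whereas shallow cells had 28 and 36. The whole list of 14 mural and smooth muscle genes, of which 8 were listed in the tumor libraries and 7 in no HCC, summed to 46.7 CPM in deep cells of CreLox HCC, 48.5 in HepABC HCC and 11.6 in no HCC, in 65.0%, 61.9% and 16.9% of cells. Most of it was the myosin kinase gene mylka, at 29.8 CPM in CreLox HCC, 31.4 in HepABC HCC and 0.566 in no HCC, 52.7-fold above no HCC (14.3 to 439) and 0.952 of HepABC HCC (0.797 to 1.13). The genes are therefore called by their own names here.

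Across the 186 deep cells, the genes whose levels were most like tac4 were made by hepatocytes, with Pearson's r of 0.48 for zgc:123103, 0.47 for the protease inhibitor gene serpina1, 0.44 for ambp, 0.43 for the complement gene c9 and 0.42 for the prothrombin gene f2, and r was positive for 11 of 11 hepatocyte markers with a median of 0.41. These are correlations over cells of 1 library that share depth scaling, over 3257 genes, and they have no test. Of the 186 cells 175 were hepatocyte-like, and 172 of these held tac4 before thinning. Cells of other clusters were kept in the correlations and in the split by tac4 given next, so both mix cell types. The share of that mix in the values was not tested. In the 162 thinned cells with tac4 and the 24 without, Xenopus β-catenin stood at 317 and 316 CPM and EBFP at 4329 and 4219, and fabp10a at 48581 and 37127, with median depths of 26261 and 16755 UMIs before thinning. The other genes had different partners. Nearest to basp1 were nupr1b (0.59), s100a10a (0.56), fhl1b (0.54), s100a10b and zgc:85843 (both 0.53) and flna (0.52), and nearest to fhl1b were basp1 (0.54), s100a10b (0.53), dbi (0.52), rgs4 (0.52) and fkbp1aa (0.51). Nearest to rgs4 was basp1 (0.52), and nearest to rgs5a were chia.6 (0.56) and the cytokine receptor gene cntfr (0.52), both found in under 17% of cells. For uchl1 the nearest were fhl1b (0.43), s100a10b (0.41) and the actin regulators cfl1 and tmsb4x (both 0.38). For all 5 of these genes the median r with hepatocyte markers was below 0, from -0.15 to -0.10. No likeness was computed for syt5a, which was in 9.14% of thinned cells, under the minimum of 10%.

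Most of the listed relatives and partners of the members were under 10 CPM in deep CreLox HCC cells. The counts of 4-fold higher genes below stand beside 4.69% of all genes over no HCC. None of 3 other tachykinin genes was listed in CreLox HCC, and a search by symbol (tacr) found no tachykinin receptor gene listed in any library. Of 16 genes for peptide processing 7 were listed and 0 of the 3 that could be compared were 4-fold higher than in no HCC, with pam, which amidates peptides, at 19.1 CPM against 10.5 and the protease gene furina at 12.19 against 17.3. Of 26 genes of the SNARE fusion machinery, on which synaptotagmins act, 15 were listed and 0 of 4 compared were 4-fold higher. Of the 4, vamp3 at 26.6 CPM was 2.61-fold above no HCC (1.79 to 3.89) and napab at 29.0 CPM 1.51-fold (1.12 to 2.04). The ratios of snap23.1 (1.225, 0.821 to 1.847) and stxbp3 (1.025, 0.679 to 1.558) did not differ from equality beyond counting error. Of 16 G protein alpha genes, a family that includes the substrates of RGS proteins, 10 were listed and 0 of 3 compared were 4-fold higher. All 3 were above no HCC beyond counting error, gnai1 at 24.2 CPM by 3.05-fold (2.01 to 4.78). The ratio was 2.33 for gna11b (1.39 to 4.06) and 1.56 for gnai2a (1.03 to 2.395). None of the 12 other RGS genes, the 4 other FHL genes or the 1 other synaptotagmin gene listed reached 10 CPM in deep CreLox HCC cells. Among growth cone genes marcksl1b, which encodes a membrane protein of the kind of BASP1, stood at 13.8 CPM, 6.97-fold above no HCC (3.20 to 18.0) and 8.47-fold above HepABC HCC (5.98 to 11.98). It was also among the leading genes of the endothelial-like clusters of CreLox HCC and no HCC. Deep CreLox HCC cells included 2 endothelial-like cells, against 0 in HepABC HCC and 0 in no HCC. The part of these cells in the marcksl1b ratios was not tested. Of the ubiquitin hydrolase family uchl3 was at 19.7 CPM, 2.24-fold above no HCC (1.48 to 3.48).

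Of 37 actin and contractile genes 26 were listed in CreLox HCC and 14 could be compared, of which 7 were at least 4-fold higher than in no HCC with a median of 5.49, beside 4.69% of all genes with a median of 1.38, while 2 were so against HepABC HCC with a median of 1.31, beside 4.4% with a median of 1.06. The highest in level was actb2 at 2974 CPM, 1.94-fold above no HCC (1.88 to 2.00) and 1.785-fold above HepABC HCC (1.753 to 1.817). Cytoplasmic actin actb1 was at 252 CPM, 9.99-fold above no HCC (8.05 to 12.5) and 6.16-fold above HepABC HCC (5.72 to 6.62). Next, myl12.1 at 147 CPM was 2.755-fold above no HCC (2.344 to 3.251) and 0.759 of HepABC HCC (0.702 to 0.8185). Lower in level but named as well are flna and cnn2, a calponin. At 40.4 CPM cnn2 was 10.98-fold above no HCC (6.28 to 21.0) and 5.57-fold above HepABC HCC (4.64 to 6.67). In contrast tagln2, a transgelin, at 90.2 CPM did not differ from its HepABC HCC level of 95.4 beyond counting error (ratio 0.945, 0.855 to 1.04), and flna at 72.1 CPM was 1.41-fold above HepABC HCC (1.25 to 1.57) and at least 84.9-fold above no HCC. Of 15 Wnt target genes 9 were listed, and 0 of the 3 compared with no HCC and 0 of the 4 compared with HepABC HCC were 4-fold higher. Those comparisons took genes of 10 CPM or more in either library. Of the targets under that level, named after their values were seen, axin2 was 5.02-fold (1.96 to 16.4), wif1 8.13-fold (2.56 to 41.4) and myca 15.06-fold (3.92 to 128) above no HCC, and wif1 8.35-fold above HepABC HCC (5.07 to 13.7). Of the other lists, marcksl1a and rgs8 over no HCC and gnai2b, rgs16, rgs18, myl9a, tpm4a and actn1 over HepABC HCC were likewise at least 4-fold higher beyond counting error at under 10 CPM.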

How the data were processed

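The authors sequenced 3′ single-cell libraries, and per the labels they used Cell Ranger 2.2.0 with genome build GRCz11, to which, by the methods of the study, the Xenopus β-catenin sequence was added and, for CreLox HCC and no HCC, that of EBFP. The deposited values were raw UMI counts per gene and cell. By the methods, droplets of 10000 or more UMIs were taken as cells directly, shallower ones had to pass EmptyDrops, and outlying cells were removed.

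Counts were summed over the cells of a library and scaled to CPM. No p-value was computed, since each group had 1 library. Ratios were compared over genes listed in both libraries with 10 CPM or more in either, and a library at 0 UMIs was taken at 3 counts. Each library was clustered by itself (2000 variable genes, 12 or 16 principal components, 20 neighbours, resolution 1, without the members, transgenes and mitochondrial genes) with scanpy 1.11.5 and leidenalg 0.10.2. Clusters were named from marker lists by a rule set after clusters had been seen, and may differ from those of the study. Doublet scores served only for alternatives that left out 66, 36 and 9 cells. TMM factors came from edgeR 4.0.16 and intervals from scipy 1.17.1. Only the ratios with their intervals and the co-detection quotient with thinning were tested on simulated data, which were drawn as Poisson counts. Clustering, cluster names, doublet scores and correlations were not tested in this way. The members and gene lists were chosen with earlier results of these data known. Other genes were mostly named from those with 10 CPM or more in deep CreLox HCC cells, not all of which are named, and partners by the highest r. Genes compared between cells with and without the members were hepatocyte markers, Wnt targets and genes picked after their values had been seen.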

Additional observations from a re-analysis of the deposited data

How the results depend on the processing

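Member levels, their ratios between libraries and the counts of 4-fold higher genes were recomputed in several ways. Deep cells were taken from 5000 or from 20000 UMIs, and other scalings were used (TMM factors, no top genes, the mean of single cells). Hepatocyte-like cells were taken alone, and cells of the highest doublet scores or mitochondrial shares were left out. The count of members at least 4-fold higher stayed at 6 over no HCC and over HepABC HCC in all of these. Shares were recomputed with other bounds on UMIs and after thinning, and levels by class with other clusterings. Correlations, marker sums, ratios of other gene lists and ratios of immune-like to hepatocyte-like cells were not recomputed in these ways. Nor were the levels in cells split by the number of members. The ratio over no HCC varied most for rgs5a (10.5 to 268), rgs4 (11.01 to 146), fhl1b (14.96 to 191, mostly lower bounds) and basp1 (18.8 to 107), and the ratio of syt5a over HepABC HCC ran from 0.381 to 0.451. For tac4 over HepABC HCC the ratio ran from 1362 with cells from 5000 UMIs to 14788 among hepatocyte-like cells. No ratio of CreLox HCC over another library changed direction. HepABC HCC over no HCC, tried after seeing the data, went with cells from 5000 UMIs from 1.54 to 0.0829 for rgs5a, from 1.58 to 0.508 for basp1 and from 13.6 to 1.28 for rgs4, and the bound of 2.68 for fhl1b became 0.811 from 20000 UMIs. The share of all genes at least 4-fold above no HCC, 4.69%, became 2.48% from 5000 UMIs, 2.58% with TMM factors, 7.26% without the minimum of 10 CPM and 20% at a fold of 2, and the 4.4% above HepABC HCC became 13.4% without that minimum and 13.7% at a fold of 2. TMM factors divided every ratio over no HCC by 1.42 and every ratio over HepABC HCC by 1.12, shifts of -0.50 and -0.16 on the log2 scale, beside which the members' ratios stand. Of the 6 pairs with tac4, the number above 1 was 6 with all UMIs, 3 after thinning to 10000 and 3 when 2 or more UMIs were asked for, and of the 15 others 14 were above 1 in that last case, syt5a with rgs5a going from 1.94 to 0. Of ratios of CreLox HCC over another library 89 moved by less than counting error and 15 by more, and of levels 132 and 28. Shares of cells mostly moved, 23 by less than counting error and 37 by more. The numbers were 17 and 4 for ratios of deep to shallow cells and 150 and 9 for levels by class. For HepABC HCC over no HCC they were 39 and 9. With 1 or 2 UMIs in no HCC, the ratios of basp1, rgs4 and rgs5a are bounded poorly from above, and 0 UMIs in its deep cells allows a level of up to 0.849 CPM. No paired analysis was possible because each group has 1 library, and leaving out a replicate was not possible for the same reason.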
